A study of Homo sapiens with 40 samples.

Results

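Matrix metalloproteinases (MMPs) and their tissue inhibitors (TIMPs) were followed across breast epithelial and breast cancer cultures. The members were taken as 10 listed gene symbols, 8 MMPs (MMP1, MMP2, MMP3, MMP7, MMP9, MMP10, MMP13 and MMP14) and 2 TIMPs (TIMP1 and TIMP3), out of 60708 genes counted. RNA-seq was available for 24 libraries, 3 biological replicates in each of 8 groups. MI-spheres were 3D cultures of MCF-10A, an immortalized breast epithelial line, and MII-spheres were 3D cultures of its HRAS-transformed derivative, both grown on ultra-low attachment plates. Each was left untreated (MI Ctrl, MII Ctrl) or stimulated with TGF-beta1 at 2.5 ng/ml for 16 h (MI TGFβ, MII TGFβ). MDA-MB-231, a triple-negative breast cancer line, was grown as a monolayer in serum-containing medium in the other 4 groups. It was untreated with wild-type genotype (WT), carried a CRISPR/Cas9 knockout of SLUG (SLUG KO), or was transfected with scrambled control siRNA (Csi) or with siRNAs against SMAD2, SMAD3 and SMAD4 (siSMAD2/3/4). The knockout cells were expanded from single-cell colonies and the labels do not say how many colonies the 3 libraries represent. None of the MDA-MB-231 groups received TGFβ. The comparisons ask how TGFβ, HRAS transformation, SLUG (the protein of SNAI2) and the SMADs that carry the TGFβ signal bear on RNA of these proteases and inhibitors.

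MMPs are zinc-dependent endopeptidases that are made as inactive zymogens, and together they can cleave nearly every component of the extracellular matrix. They are grouped by substrate and structure into collagenases (MMP1, MMP13), gelatinases (MMP2, MMP9), stromelysins (MMP3, MMP10), the small matrilysin MMP7 and membrane-anchored enzymes such as MMP14, which activates pro-MMP2 at the cell surface. TIMPs bind the active site of MMPs and block them, TIMP1 as a soluble protein and TIMP3 as one held in the matrix that also blocks several ADAM and ADAMTS proteases. RNA levels say nothing of zymogen activation or inhibition.

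On GRCh38, 5 of the members lie on the minus strand of chromosome 11 within 435 kb (chr11:102520508-102955732), in the order MMP7 (chr11:102520508-102530750), MMP10 (chr11:102770502-102780628), MMP1 (chr11:102789401-102798160), MMP3 (chr11:102835801-102843609) and MMP13 (chr11:102942995-102955732). The other members lie apart on the plus strand, MMP2 at chr16:55389700-55506691, MMP9 at chr20:46008908-46016561, MMP14 at chr14:22836560-22849041, TIMP1 at chrX:47582408-47586789 and TIMP3 at chr22:32801705-32863041. All are protein-coding genes, and counts were taken over their exons. Strand was ignored in the counting, so reads from a gene and its antisense partner cannot be told apart where their exons overlap. The antisense pseudogene WTAPP1 shares 8.1% of the exon length of MMP1 and 1.7% of that of MMP3, and it had at most 3 counts in any library. SLC12A5-AS1 shares 18.4% of the exon length of MMP9, so MMP9 counts are less certain, although SLC12A5-AS1 itself did not exceed 0.141 CPM in any library. A gene without a symbol on the same strand shares 3.7% of the exon length of MMP2, and its counts are not given. TIMP1 and TIMP3 lie in introns of SYN1 and SYN3 without shared exon bases.

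Total counts per library ranged from 14124688 to 38406952. Replicates correlated with r of at least 0.984 across genes outside the WT group, where both pairs that include WT replicate 2 gave 0.952 and 0.957. Calls that rest on WT are therefore given with and without this library. HRAS was higher in MII than in MI Ctrl (log2 fold-change 2.45 ± 0.044, SE). SMAD7, an inhibitory SMAD induced by TGFβ, was called in neither line. The siRNA libraries showed SMAD2, SMAD3 and SMAD4 RNA that fell by 1.92, 0.69 and 1.73 on the log2 scale. SNAI2 RNA was higher, not lower, in the libraries labelled SLUG KO (1.11 ± 0.21, adjusted p = 0.0399, edgeR), with 63.4, 57.3 and 64.6 CPM (counts scaled to library size) against 30.1, 20.0 and 33.1 in WT. That call was lost without any SLUG KO library (adjusted p from 0.182 to 0.221), without WT replicate 1 (0.13) or 3 (0.0628), with at least 10 counts in every library (0.0546) and with a replicate block (0.108), and it held without WT replicate 2 (0.94 ± 0.097, adjusted p = 2.54e-06). A small change in an exon is not seen in gene counts, so the RNA does not check that label. The paper reports ddPCR and immunoblotting as its own checks of the knockout clones. Among markers of the lines, the basal genes KRT5, KRT14, TP63 and CDH1 summed to 579 to 1210 CPM in the sphere libraries and to 1.87 to 23.3 CPM in MDA-MB-231, where KRT5 and KRT14 averaged under 1 CPM. TP63 averaged under 1 CPM in MII Ctrl. The pair VIM and ZEB1 summed to 2.79 to 13.7 CPM in spheres and to 609 to 1170 CPM in MDA-MB-231. The leukocyte markers PTPRC and CD68 summed to at most 0.767 CPM in any library. The endothelial markers PECAM1 and VWF summed to at least 89.2 CPM in every MII library, with VWF averaging under 1 CPM in both MII groups, against 9.90 to 12.2 CPM in MI-spheres. The fibroblast markers PDGFRB, COL1A2 and DCN summed to 11.1 to 12.4 CPM in MI Ctrl, 15.5 to 18.3 in MI TGFβ and at most 0.75 in MII-spheres, with PDGFRB and COL1A2 under 1 CPM in all sphere groups, and to 45.7 to 85.6 in MDA-MB-231, with DCN under 1 CPM. These lists moved with line or TGFβ, and their part in the results was not tested.

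Per length of exon, MMP14 was the most abundant of the 8 MMPs in every group. In FPKM, which is CPM per kilobase of exon, it averaged 44.2 ± 1.33 (SD, n = 3) in MI Ctrl, 50.0 ± 1.51 in MI TGFβ, 22.1 ± 0.73 in MII Ctrl and 31.3 ± 0.701 in MII TGFβ. It held 63.3%, 57.4%, 54.8% and 40.1% of the summed MMP FPKM in these groups, in this order, and between 97.8% and 99.6% in the 4 MDA-MB-231 groups. Of the other 7 MMP members, the collagenase MMP13 came next in spheres, at 21.1% in MI Ctrl, 25.4% in MI TGFβ, 27.1% in MII Ctrl and 31.3% in MII TGFβ. The lines then parted. MMP10 was next in MI Ctrl, at 10.9 ± 0.961%, and MMP7 was at 0.329 ± 0.026%. In MII Ctrl the order was turned, with MMP7 at 14.6 ± 0.602% and MMP10 at 0.346 ± 0.194%. This order holds among the 8 members. MMP28, an MMP outside them, had 58.6 ± 1.09 FPKM in MI Ctrl and 81.0 ± 5.61 in MI TGFβ, above MMP14, and 6.24 ± 0.0962 in MII Ctrl and 3.69 ± 0.114 in MII TGFβ.

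The sum of TIMP1 and TIMP3 FPKM exceeded the sum of the 8 MMPs in every group except MII TGFβ. The ratio of the sums was 1.21 ± 0.0289 in MI Ctrl and 1.34 ± 0.0294 in MI TGFβ. It was 1.44 ± 0.0453 in MII Ctrl and 0.886 ± 0.0389 in MII TGFβ, where the 3 libraries had 0.862, 0.931 and 0.865. With TGFβ the ratio over these members was higher in MI- and lower in MII-spheres, without overlap of the libraries in either line. Its level in MI-spheres depends on the genes summed. Over all 23 MMPs and 4 TIMPs counted, an alternative chosen after seeing the data, it was 0.678 ± 0.0222 in MI Ctrl and 0.695 ± 0.0196 in MI TGFβ, both under 1 and with overlapping libraries. It was then 1.18 ± 0.0249 in MII Ctrl and 0.829 ± 0.0313 in MII TGFβ, still without overlap. In MDA-MB-231 the ratio over the members was 3.44 ± 0.191 in SLUG KO, 3.29 ± 0.0698 in Csi and 4.13 ± 0.0857 in siSMAD2/3/4. WT averaged 2.55 ± 0.665, with 1.78 in replicate 2 and 2.95 and 2.92 in the others. With all MMPs and TIMPs the group means in MDA-MB-231 ran from 2.80 to 5.12. These are sums over RNA of chosen genes, given as a description without a test.

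**Figure D1:**
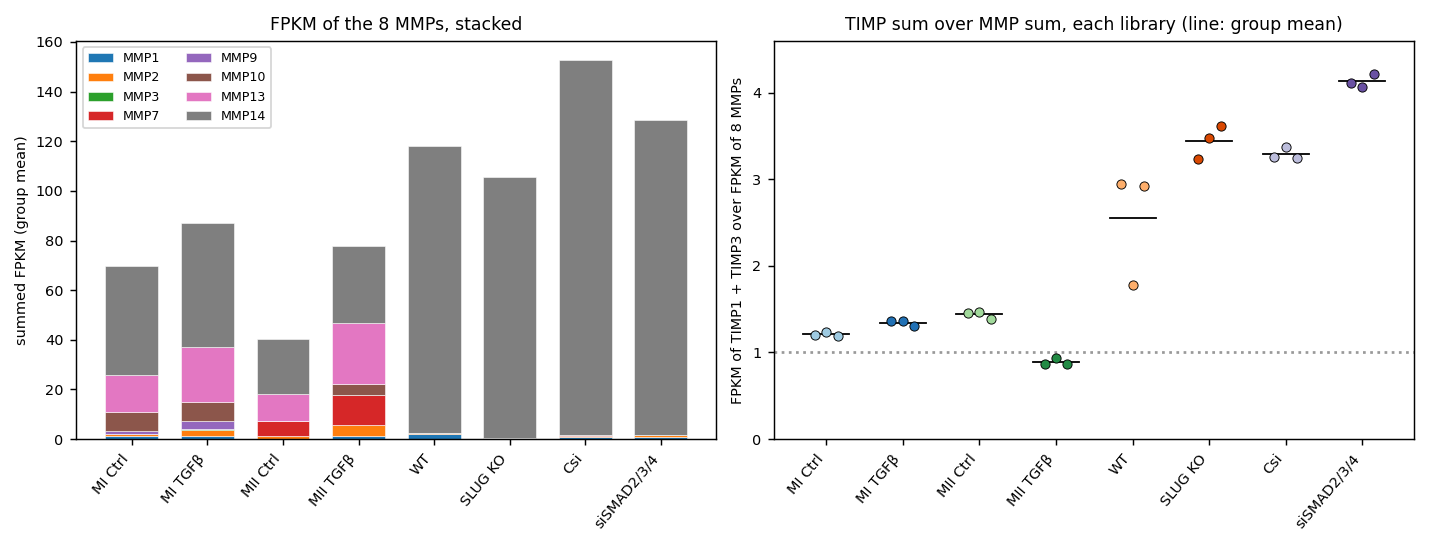
Left, mean FPKM of the 8 MMPs stacked for each group. Right, the summed FPKM of TIMP1 and TIMP3 divided by that of the 8 MMPs, with 1 point per library, a line at each group mean and a dotted line at 1. MMP14 fills most of each bar in MDA-MB-231, and over these members MII TGFβ is the group whose 3 libraries lie under 1.

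TGFβ raised MMP2 and MMP9 RNA in MI-spheres, and MMP1, MMP10, MMP2 and MMP13 RNA in MII-spheres. DEGs were genes with an adjusted p under 0.05 and an absolute log2 fold-change above 1. Of the 9 members tested in MI-spheres, 6 rose and none fell, beside 56% of all 16863 genes tested that changed, 28.7% that rose and 27.4% that fell. MMP2 and MMP9 were DEGs and higher, where 13.6% of all genes were DEGs and 3.64% were higher DEGs. Of the 8 members tested in MII-spheres, 7 rose and none fell, where 57.6% of 16396 genes changed, 29.9% rose and 27.6% fell. MMP1, MMP2, MMP10 and MMP13 were DEGs and higher, where 10.6% of all genes were DEGs and 3.12% were higher DEGs. Ranges of the 3 libraries did not overlap between stimulated and unstimulated spheres for 60.6% of all genes in MI and 61.3% in MII. The median log2 fold-change of the tested members was 0.56 in MI and 1.07 in MII, beside -0.016 and -0.018 over all genes. For MMP1 and MMP10, the stimulated MII-spheres alone held enough counts to enter this test.

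Unstimulated MII-spheres differed from MI-spheres in 8 of the 9 members tested. MMP7 and MMP2 were higher in MII Ctrl, while MMP1, MMP9, MMP10, TIMP3, MMP13 and MMP14 were lower. Across all 17862 genes tested, 31.7% were higher and 32.5% lower, 64.2% in all, and the ranges of 67.3% did not overlap. DEGs made up 20.1% of all genes and 6 of the 9 members. MMP1, MMP9 and MMP10 entered this test through MI Ctrl alone. In bulk RNA, fewer cells with a transcript and less of it per cell cannot be told apart. The test of whether TGFβ responses differ between the lines called 5 of 9 members, MMP1, MMP10, MMP13 and MMP14 with a larger and TIMP1 with a smaller response in MII-spheres, where 12.6% of 18591 genes had a larger and 9.75% a smaller response, 22.4% in all. DEGs by this test were MMP1 and MMP10, and 5.84% of all genes. MMP2, MMP7, MMP9 and TIMP3 were not called.

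**Figure D2:**
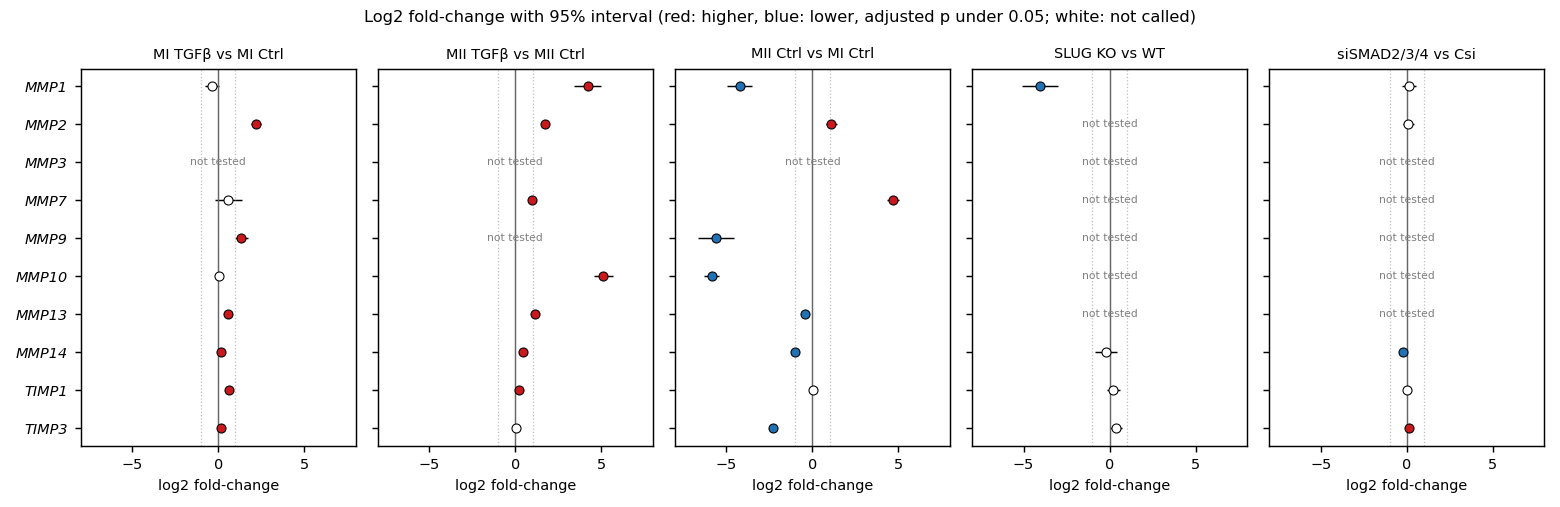
Log2 fold-change of each member in 5 comparisons, with its 95% interval as a bar. Red points are higher and blue points lower at an adjusted p under 0.05, white points were not called, and dotted lines mark a log2 fold-change of 1 in either direction. MMP1 and MMP10 stand far right in MII-spheres and far left in the comparison of unstimulated MII- with MI-spheres.

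The collagenases initiate the cleavage of fibrillar collagen. MMP1, the interstitial collagenase, was at 3.86, 2.93 and 4.36 CPM in MI Ctrl and at 2.68, 2.69 and 3.36 in MI TGFβ, ranges that overlap (log2 fold-change -0.38 ± 0.19, 95% interval -0.77 to 0.02, adjusted p = 0.0968, edgeR's quasi-likelihood test). In MII Ctrl its libraries held 0.396, 0.205 and 0 CPM, 12 counts in all. With TGFβ they held 2.96, 3.31 and 4.91 CPM, and none overlapped the unstimulated ones (4.21 ± 0.39, 18.5-fold, adjusted p = 2.29e-13). Stimulated MII-spheres therefore reached the level of MI-spheres, with overlapping ranges, from a level 18.8-fold lower (MII Ctrl against MI Ctrl, -4.23 ± 0.37, adjusted p = 4.52e-15). The responses of the lines differed by 4.6 ± 0.46 (adjusted p = 2.83e-10). Over the 8 groups, WT had the highest mean of MMP1 (6.13 ± 1.49 CPM), followed by MII TGFβ, MI Ctrl and MI TGFβ, of which each overlaps the next in the order.

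MMP13, a collagenase that prefers type II collagen, was at 41.1, 42.5 and 41.6 CPM in MI Ctrl and at 60.9, 58.7 and 68.4 in MI TGFβ (0.56 ± 0.063, 1.47-fold, adjusted p = 2.38e-07, edgeR). In MII-spheres it rose from 31.8, 29.3 and 31.9 CPM to 70.1, 68.0 and 69.0 (1.14 ± 0.061, 2.20-fold, adjusted p = 1.55e-22). All stimulated libraries lay above all unstimulated ones in both lines. The rise was larger in MII-spheres by 0.59 ± 0.089 (adjusted p = 2.23e-06), from a start that was lower by 0.43 on the log2 scale (SE 0.062, adjusted p = 1.61e-08). The stimulated lines overlapped. In MDA-MB-231 MMP13 was nearly absent from the counts, at 3 to 11 counts per group and at most 0.225 CPM in any library.

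The gelatinases degrade denatured collagen and the type IV collagen of basement membranes. MMP2, gelatinase A, rose in both lines. It was at 2.93, 2.50 and 2.75 CPM in MI Ctrl and at 13.2, 14.4 and 11.5 in MI TGFβ (2.22 ± 0.14, 4.67-fold, adjusted p = 2.62e-11, edgeR). In MII Ctrl it was at 4.89, 6.92 and 5.35 CPM and in MII TGFβ at 18.1, 18.9 and 23.3 (1.75 ± 0.12, 3.36-fold, adjusted p = 1.57e-18). None of the 4 sphere groups overlapped another, and MII TGFβ was the highest of the 8 groups. The line difference without TGFβ was 1.10 ± 0.17 (adjusted p = 6.93e-08). The responses were not called different (-0.46 ± 0.20, 95% interval -0.86 to -0.06 before adjustment, adjusted p = 0.0954), and the difference passed the threshold when MI TGFβ replicate 3 (adjusted p = 0.0148) or MII TGFβ replicate 3 (0.0234) was left out.

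MMP9, gelatinase B, was seen in MI-spheres. MI Ctrl held 3.47, 1.73 and 2.54 CPM and MI TGFβ 7.23, 6.80 and 6.51, without overlap (1.35 ± 0.18, 2.54-fold, adjusted p = 2.76e-06, edgeR). In MII-spheres it had 3 counts over the unstimulated and 2 over the stimulated libraries, and it was not tested for TGFβ there. MI Ctrl exceeded MII Ctrl by a ratio of pooled CPM of 55.3, with a 95% counting interval of 18.6 to 271 (exact, conditional on the counts), and the difference was called (adjusted p = 4.05e-14). At such counts the difference of the TGFβ responses had an SE of 1.5 on the log2 scale and was not resolved (adjusted p = 0.557). LCN2, whose product binds and stabilises the MMP9 protein, went the other way in MI-spheres. It fell by 3.99 on the log2 scale with TGFβ (SE 0.066, adjusted p = 1.57e-20), from 243 ± 5.13 to 15.5 ± 0.987 CPM, and was at 1320 ± 25 CPM in MII Ctrl and 1320 ± 12.6 in MII TGFβ.

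The stromelysins cleave proteoglycans, fibronectin and laminin and activate other zymogens. MMP10, stromelysin-2, was at 12.6, 13.0 and 14.6 CPM in MI Ctrl and at 13.1, 12.7 and 15.8 in MI TGFβ, groups that overlapped throughout (0.03 ± 0.10, 95% interval -0.18 to 0.24, adjusted p = 0.833, edgeR). In MII Ctrl it was at 0.396, 0.17 and 0.165 CPM, 14 counts in all and 58.1-fold lower than in MI Ctrl (-5.86 ± 0.22, adjusted p = 3.82e-30). TGFβ brought it to 8.14, 8.54 and 7.57 CPM in MII-spheres (5.11 ± 0.28, 34.5-fold, adjusted p = 3.07e-22), which stayed below every MI library. The responses of the lines differed by 5.10 ± 0.28 (adjusted p = 2.67e-17). In MDA-MB-231, MMP10 had 5 counts over the Csi libraries and 0 in WT, SLUG KO and siSMAD2/3/4, where 3 counts over a group would be 0.0389, 0.0433 and 0.0299 CPM. MMP3, stromelysin-1, had at most 3 counts over any group, with 1 in each MI TGFβ library and 0 in 5 of the 8 groups, and it was tested in no comparison.

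MMP7, the matrilysin, lacks the C-terminal hemopexin domain of the other members and is typical of epithelium. MII Ctrl held 12.8, 14.2 and 14.1 CPM, against 0.501, 0.577 and 0.519 in MI Ctrl (4.68 ± 0.18, 25.7-fold, adjusted p = 6.17e-30, edgeR). With TGFβ it was at 28.1, 26.4 and 29.3 CPM in MII-spheres (0.996 ± 0.082, 1.99-fold, adjusted p = 3.94e-15), a rise that falls just short of the DEG threshold. In MI TGFβ it was at 1.07, 0.727 and 0.696 CPM, above the unstimulated libraries in every case but without a call (0.59 ± 0.37, adjusted p = 0.186). The responses were not called different (0.43 ± 0.32, 95% interval -0.22 to 1.07, adjusted p = 0.397). MMP7 in MII-spheres was thus high where MMP9 and, without TGFβ, MMP10 and MMP1 were near the floor of the counts.

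The promoters of MMP7 and MMP10 are shown because these chromosome 11 members had opposite levels in the unstimulated lines and rose together in stimulated MII-spheres. Promoter sequence was given for 5 of the 10 members, MMP7, MMP10, MMP14, TIMP1 and TIMP3 (RefSeq, GRCh38.p14), and the 250 bases before the start were used. Those of MMP7 (chr11:102530748-102530997, minus strand) and MMP10 (chr11:102780629-102780878, minus strand) read 5′ to 3′ as follows, with the AP-1 match TGANTCA and the TATA match TATAAA in capitals.
MMP7: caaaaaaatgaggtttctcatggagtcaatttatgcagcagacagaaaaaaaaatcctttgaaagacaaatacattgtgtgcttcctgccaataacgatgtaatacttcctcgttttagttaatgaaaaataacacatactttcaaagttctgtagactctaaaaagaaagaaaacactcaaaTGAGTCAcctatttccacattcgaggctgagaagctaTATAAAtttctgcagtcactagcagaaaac
MMP10: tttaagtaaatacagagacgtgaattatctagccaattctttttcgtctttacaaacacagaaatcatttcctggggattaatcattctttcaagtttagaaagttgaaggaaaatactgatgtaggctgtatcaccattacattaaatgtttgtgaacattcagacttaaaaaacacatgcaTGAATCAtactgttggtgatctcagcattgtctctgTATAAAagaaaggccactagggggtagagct
Both held the AP-1 match at bases 67 to 61 before the start. Searched on both strands, TGANTCA was found in 6.57% of 35116 promoters of the same length, and TATAAA, searched on the gene strand, in 6.80%. The TATA match began at base 30 before the start in MMP7 and at base 31 in MMP10. Neither letter run was found in the windows of MMP14, TIMP1 and TIMP3, which had 56.8%, 64.8% and 72.4% G and C against 33.6% and 34.4% in MMP7 and MMP10. CAGAC, the SMAD box, was present once in MMP7, once in MMP10, once on the opposite strand of TIMP3 and in 38% of all promoters on either strand. CAGGTG, an E-box to which SLUG can bind, was in none of the 5 windows and in 17.5% of all promoters. AGGAAG, an ETS motif, was found on the opposite strand at 2 places in MMP7 and on the gene strand at 1 place in TIMP1, beside 28.7% of promoters, and AACAAAG, a TCF/LEF motif, in none of the 5 and in 4.50% of all. The matches overlapped no other motif searched. A match is a string of letters and was not tested as a binding site.

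MMP14 is the membrane-type enzyme that activates pro-MMP2 and cleaves collagen at the cell surface. In MI-spheres it was at 209, 207 and 197 CPM without and at 234, 223 and 237 CPM with TGFβ (0.15 ± 0.049, 1.11-fold, adjusted p = 0.0157, edgeR), a small rise whose groups did not overlap. Without a low-count filter this call was lost (adjusted p = 0.0696). In MII-spheres it went from 99, 105.7 and 102.2 CPM to 147, 141 and 146 (0.47 ± 0.043, 1.39-fold, adjusted p = 9.88e-14). The rise in MII exceeded that in MI by 0.34 ± 0.064 (adjusted p = 9.96e-05). Before stimulation MII-spheres had 1.99-fold less MMP14 than MI-spheres (-0.99 ± 0.04, adjusted p = 4.2e-29), just short of the DEG threshold, and stimulated MII-spheres were still below every MI library. All 12 MDA-MB-231 libraries, at 404 to 752 CPM, exceeded all 12 sphere libraries.

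Of the inhibitors, TIMP1 rose with TGFβ in both lines and TIMP3 separated them. TIMP1 was at 71.8, 73.6 and 69.7 CPM in MI Ctrl and between 110 and 113 in the 3 libraries of MI TGFβ (0.61 ± 0.053, 1.53-fold, adjusted p = 4.41e-09, edgeR). In MII-spheres it was at 74.9, 76.8 and 70.9 CPM without and at 87.7, 91.1 and 88.9 CPM with TGFβ (0.24 ± 0.049, 1.18-fold, adjusted p = 4.78e-05). The rise was smaller in MII-spheres by 0.36 on the log2 scale (-0.36 ± 0.071, adjusted p = 0.000155), the opposite of MMP13 and MMP14. The unstimulated lines overlapped (0.06 ± 0.048, 95% interval -0.04 to 0.15, adjusted p = 0.323).

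TIMP3 was at 161, 163 and 155 CPM in MI Ctrl and at 27.9, 33.7 and 34.6 in MII Ctrl, 4.93-fold lower (-2.30 ± 0.052, adjusted p = 9.35e-41, edgeR). TGFβ left the groups overlapping in MII-spheres, at 30.9, 35.4 and 34.1 CPM (0.03 ± 0.072, 95% interval -0.12 to 0.17, adjusted p = 0.773). In MI-spheres it reached 185, 170 and 188 CPM, above all unstimulated libraries (0.15 ± 0.051, 1.11-fold, adjusted p = 0.0175), a call lost without a low-count filter (adjusted p = 0.0736). The responses were not called different (-0.11 ± 0.088, 95% interval -0.29 to 0.07, adjusted p = 0.415). SYN3, whose intron holds TIMP3, was also lower in MII than in MI Ctrl, at 0.531 ± 0.126 against 2.83 ± 0.607 CPM (fell by 2.38 on the log2 scale, adjusted p = 5.22e-10). SYN3 entered this test through MI Ctrl alone, with 187 counts there against 34 in MII Ctrl. MDA-MB-231 had the most TIMP3, from 652 CPM in a WT library to 1273 CPM in a siSMAD2/3/4 library.

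In MDA-MB-231 labelled SLUG KO, MMP1 was the member that fell, and the 2 TIMPs lay above WT without a call. MMP1 was at 5.84, 4.81 and 7.74 CPM in WT and at 0.436, 0.544 and 0.136 in SLUG KO, 473 against 26 counts (-4.06 ± 0.45, 16.7-fold lower, adjusted p = 0.00557, edgeR). Only WT held enough MMP1 counts to enter the test. Of the 4 members tested, 1 was called, and of all 17428 genes tested 3.33% were called, 1.45% as higher and 1.89% as lower, and 3.05% were DEGs. TIMP1 was at 174, 220 and 208 CPM in WT and at 250, 226 and 255 in SLUG KO (0.22 ± 0.17, adjusted p = 0.503). TIMP3 was at 662, 652 and 671 CPM in WT and at 873, 879 and 919 in SLUG KO (0.37 ± 0.15, adjusted p = 0.244). No library of either TIMP overlapped the other group, a pattern seen in 31.3% of all genes. Without WT replicate 2 both TIMPs were called higher, TIMP1 with 0.33 (adjusted p = 0.0159) and TIMP3 with 0.39 (adjusted p = 0.00363), and MMP1 stayed called (-4.18 ± 0.32, adjusted p = 8.09e-08), while the genes called over the whole table rose from 581 to 5592.

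MMP14 turned on that library. WT replicate 2 held 752 CPM where replicates 1 and 3 held 404 and 446, and SLUG KO held 518, 460 and 480. With it the log2 fold-change was -0.20 ± 0.27 (adjusted p = 0.716, edgeR), and without it 0.17 ± 0.091 (adjusted p = 0.182). The same library had 79.2 CPM of SMAD2 and 31.1 CPM of SMAD4 where the other WT libraries had 143 CPM of SMAD2 and at least 63.6 CPM of SMAD4. The other members were too low to be tested. MMP2 had 12 counts in WT and 20 in SLUG KO, MMP9 had 13 and 26, MMP7 had 4 and 6, MMP13 had 6 and 3, MMP3 had 1 and 0, and MMP10 had 0 in both.

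Knockdown of the SMADs went with slightly less MMP14 and slightly more TIMP3. MMP14 was at 680, 702 and 713 CPM in Csi and at 597, 600 and 565 in siSMAD2/3/4 (-0.25 ± 0.038, 1.19-fold lower, adjusted p = 3.28e-06, edgeR). TIMP3 was at 1100, 1164 and 1154 CPM in Csi and at 1273, 1233 and 1213 in siSMAD2/3/4 (0.13 ± 0.037, 1.09-fold, adjusted p = 0.00727). Neither pair of groups overlapped, as was so for 44% of all genes. Of the 5 members tested, 1 was lower and 1 higher, where 36% of 17696 genes were called, 19.7% as lower and 16.3% as higher, while no member was a DEG, beside 1.90% of all genes. MMP1 (0.13 ± 0.21, 95% interval -0.29 to 0.56, adjusted p = 0.672), MMP2 (0.09 ± 0.15, 95% interval -0.22 to 0.41, adjusted p = 0.688) and TIMP1 (0.04 ± 0.038, 95% interval -0.04 to 0.12, adjusted p = 0.468) were not called, and each group overlapped the other.

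The file names place siSMAD2/3/4 replicates 1 and 2 on another flow cell than the other 4 libraries, while the batch label gives the same flow cell for all 6, a conflict that was not resolved. With flow cell as a term, TIMP3 lost its call (adjusted p = 0.166, edgeR) and MMP14 kept it. Left with siSMAD2/3/4 replicate 3 alone against Csi on the shared flow cell, TIMP3 had an adjusted p of 0.184 and MMP14 stayed lower, where the lone library was assumed to vary like Csi. TIMP3 also lost its call without siSMAD2/3/4 replicate 1 (adjusted p = 0.0656). MMP9, at 0.274, 0.356 and 0.561 CPM in Csi and 0.141, 0.0898 and 0.128 in siSMAD2/3/4, did not overlap between the groups but did not pass the filter. Its pooled CPM were higher in Csi by 3.38, with a 95% counting interval of 1.74 to 7.06, and it was called lower without the filter (-1.71, adjusted p = 0.0352), with adjusted p from 0.0118 to 0.272 over the alternatives in which it was tested.

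Csi and WT are both unedited MDA-MB-231 with no SMAD knockdown, yet some members differed in level. Csi held 3.30 ± 0.374 CPM of MMP2 against 0.154 ± 0.0727 in WT, 1.80 ± 0.223 CPM of MMP1 against 6.13 ± 1.49, and 1140 CPM of TIMP3 against 662. These 3 genes were picked after their values were seen. MMP14 spanned 680 to 713 CPM in Csi and 404 to 752 in WT, ranges that overlap. Without WT replicate 2, the WT means were 0.191 CPM of MMP2, 6.79 of MMP1 and 666 of TIMP3. Transfection and sequencing batch both separate Csi from WT and cannot be told apart, so no test was made.

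Around the members, 5 lists of related genes were counted. They were chosen with earlier results of these data known. Of 15 other MMPs, 7 were tested in MI- and 8 in MII-spheres with TGFβ. In MI-spheres 3 rose and 2 fell, where 28.7% of all genes rose and 27.4% fell, and MMP19 was a DEG (-1.43 ± 0.34, adjusted p = 0.00133, edgeR). MMP19 entered that test through MI Ctrl alone, with 88 counts there against 33 in MI TGFβ. In MII-spheres 1 rose, 2 fell and none was a DEG, where 29.9% of all genes rose and 27.6% fell. Between the unstimulated lines 3 of 8 were higher and 3 lower in MII, where 31.7% of all genes were higher and 32.5% lower, with the membrane-type MMP16 (3.31 ± 0.13) and the stromelysin-3 gene MMP11 (3.21 ± 0.40) higher and MMP28 (-3.23 ± 0.05) and MMP19 (-1.06 ± 0.34) lower as DEGs. MMP11 entered this test through MII Ctrl alone, with 115 counts there against 13 in MI Ctrl. MMP19 lost its call between the unstimulated lines without MII Ctrl replicate 2 (adjusted p = 0.0586) and with DESeq2 (0.0511). MMP15 and MMP28 responded to TGFβ with opposite signs in the lines. MMP15, also membrane-bound, had -0.85 ± 0.11 in MI and 0.36 ± 0.10 in MII, a difference of 1.23 ± 0.15 (adjusted p = 6.31e-08). MMP28 had 0.44 ± 0.051 in MI and -0.79 ± 0.092 in MII, a difference of -1.21 ± 0.089 (adjusted p = 8.94e-14).

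Of the inhibitors outside the TIMP members (TIMP2, TIMP4, RECK, A2M and TFPI2), TIMP2 and RECK passed the filter in the sphere comparisons. TIMP2, which also takes part in the activation of pro-MMP2 by MMP14, fell in MI-spheres with TGFβ (-0.99 ± 0.074, adjusted p = 3.83e-10, edgeR), from 37.8 ± 2.37 to 19.5 ± 0.461 CPM, where TIMP1 rose. In MII-spheres its change was smaller (-0.15 ± 0.067, adjusted p = 0.047), and the responses differed by 0.85 ± 0.10 (adjusted p = 1.36e-08). RECK, a membrane-anchored MMP inhibitor, rose with TGFβ in MII-spheres (0.77 ± 0.21, adjusted p = 0.00133) and was higher in MII than in MI Ctrl (1.15 ± 0.27, adjusted p = 0.000171, edgeR). In MI-spheres RECK was not called with TGFβ (0.59 ± 0.27, adjusted p = 0.0743), and the responses were not called different (0.18 ± 0.34, adjusted p = 0.777). Of 9 activators and partners, 8 were tested. With TGFβ, 6 rose and 1 fell in MI-spheres, and 5 rose and 1 fell in MII-spheres, beside 28.7% and 29.9% of all genes that rose. PLAU, the urokinase that generates plasmin from plasminogen, rose in MII-spheres (1.25 ± 0.10, adjusted p = 1.57e-15) from 9.90 ± 1.74 to 24.6 ± 3.26 CPM, and MI Ctrl held 125 ± 1.35. Its difference between the unstimulated lines was -3.61 ± 0.066 (adjusted p = 4.83e-45). In that comparison 6 members were lower in MII and 2 higher, where 32.5% of all genes were lower and 31.7% higher. LRP1, an uptake receptor for MMPs and TIMPs, was also lower in MII Ctrl (-2.82 ± 0.055), and LCN2 was higher (2.45 ± 0.036).

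Among transcription factors of the AP-1, ETS and RUNX families, which bind many MMP promoters, 8 of 12 fell and 2 rose in MI-spheres, and 8 fell and 3 rose in MII-spheres with TGFβ, where 27.4% and 27.6% of all genes fell. The median log2 fold-change of the list was -0.39 and -0.68, beside -0.016 and -0.018 over all genes. FOSB fell in both lines (-1.45 ± 0.092 in MI and -2.26 ± 0.071 in MII). FOS (-1.61 ± 0.044), JUN (-1.02 ± 0.053) and RUNX2 (-1.5 ± 0.37) fell in MII-spheres as DEGs (edgeR, adjusted p of 2e-35, 8.71e-23 and 0.000585). RUNX2 entered this test through MII Ctrl alone, with 99 counts there against 26 in MII TGFβ. Between the unstimulated lines 4 of 12 factors were higher and 6 lower in MII, where 31.7% of all genes were higher and 32.5% lower. As DEGs there, the ETS genes ETV4 (2.45 ± 0.071) and ETV5 (1.19 ± 0.11) were higher and RUNX2 (-1.4 ± 0.22) was lower. In MI-spheres ETV4 fell by 1.24 and ETV5 rose by 1.02 with TGFβ. RNA of FOS, FOSB and JUN and that of MMP1, MMP10 and MMP13 thus moved in opposite directions in stimulated MII-spheres at 16 h. The 3 factors that rose there were the ETS genes ETS1 (0.67 ± 0.098), ETS2 (0.49 ± 0.053) and ETV5 (0.61 ± 0.089). Of 6 ADAM and ADAMTS genes whose products TIMP3 inhibits, 4 were tested with TGFβ in MI- and 3 in MII-spheres. In each line 2 rose, where 28.7% of all genes rose in MI- and 29.9% in MII-spheres. In MII Ctrl ADAM12 was higher (1.18 ± 0.056), and ADAM10 (-0.96 ± 0.037, adjusted p = 4.6e-30) and ADAM17 (-0.27 ± 0.052, adjusted p = 8.34e-06, edgeR) were lower.

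In MDA-MB-231 labelled SLUG KO, ADAMTS1, an aggrecan- and versican-cleaving protease, had 0 counts against 1285 in WT, at least 384-fold lower (against a floor of 3 counts over the group, adjusted p = 0.00174, edgeR). Only WT held enough ADAMTS1 counts to enter the test. PLAU rose (1.32 ± 0.17, adjusted p = 0.0087), as did TFPI2 (1.77 ± 0.36, adjusted p = 0.0467) and MMP11 (1.12 ± 0.21, adjusted p = 0.0354). Of these, MMP11 (adjusted p = 0.055) and TFPI2 (0.0652) lost their calls with at least 10 counts in every library. MMP11 (0.153) and PLAU (0.0608) lost theirs with a replicate block. All 3 calls were lost when any SLUG KO library or WT replicate 1 was left out, with adjusted p from 0.0582 to 0.196, and that of MMP11 also without WT replicate 3 (0.0784). Without WT replicate 2 they held, PLAU with 1.27 ± 0.099 (adjusted p = 1.15e-07), TFPI2 with 1.46 ± 0.11 (8.19e-08) and MMP11 with 1.24 ± 0.19 (0.000154), as did ADAMTS1 (1.64e-10). In siSMAD2/3/4 no listed gene was a DEG. The transcription factors were lower in 9 of 12 cases and higher in 2, where 19.7% of all genes were lower and 16.3% higher, with a median of -0.24 beside 0.004 over all genes. Chosen after their values were seen, PLAU fell by 0.91 on the log2 scale (SE 0.042, adjusted p = 4.39e-17), MMP15 rose (0.59 ± 0.076, adjusted p = 1.7e-07) and TIMP2 rose (0.36 ± 0.036, adjusted p = 1.36e-09). These siSMAD2/3/4 list values are from the fit without flow cell. With flow cell as a term, the genes called over the whole table fell from 6365 to 4362.

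The genes whose log2 CPM ran closest to a member over the 18 libraries of the sphere, WT and SLUG KO groups are named as a description. These libraries form 6 groups, so likeness follows mainly the group levels and carries no p. MMP7 was most like GLYATL2 (Pearson's r = 0.992) and GUCY1A1, MMP10 like MOGAT2 (0.977) and KRT6A, MMP13 like SERPINB4 and CNTLN (both 0.998), and MMP9 like IDH3B (0.972) and RAET1G. MMP2 was most like DIP2B (0.986) and ROS1, MMP14 like PC (0.994) and TMEM109, TIMP1 like SLC10A3 (0.988) and BANF1, and TIMP3 like SMARCA1 (0.995) and FYN. MMP1 had no close match, with MAP2K6 (0.834) and SFT2D2 as the nearest. MMP3 was too low for this measure.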

How the data were processed

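RNA-seq of 24 libraries was used, and the 16 ATAC-seq samples of the series were not analysed here. Per the labels, the libraries came from a stranded total RNA kit with ribosomal RNA depletion. Before deposition, the authors used Trimmomatic on the reads, STAR for alignment to GRCh38.p13, and featureCounts of Subread 2.0.0 with GENCODE release 38 to count fragments per gene. The deposited values are raw counts, with a minimum mapping quality of 30 and strand ignored per the file headers. Total counts ranged from 14124688 to 38406952 per library, and counting error limits the lowest members. Gene symbols were matched through GENCODE release 44 for 60463 of 60708 genes (99.6%).

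Counts were fitted with edgeR 4.0.16 (R 4.3.3) using filterByExpr, TMM and the quasi-likelihood test, on the libraries of each comparison alone, or on all 12 sphere libraries for the difference of the TGFβ responses. P-values were adjusted after Benjamini and Hochberg over all genes tested, and genes with an adjusted p under 0.05 were called. The SE is the absolute log2 fold-change over the root of the F statistic, and 95% intervals use it with the degrees of freedom of the test and are not adjusted for multiple testing. CPM used TMM over the 24 libraries, and FPKM divided CPM by the exon length in the count files. The floor was 3 counts over a group, and intervals of count ratios are exact for Poisson counts and cover counting error only. DESeq2 1.42.0, its size factors, other low-count filters, a replicate block, flow cell terms and the omission of each library were tried as alternatives, and a ratio over all MMPs and TIMPs was added after seeing the data. The fits were tested on simulated data. Nothing states that replicates came from separate clones or passages beyond the label of biological replicate, so p-values measure the spread between these libraries.

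The 10 members were named in every comparison. From each of the 5 lists, at most the 4 DEGs with the smallest adjusted p were named per comparison. Genes with a symbol that share exon bases with a member were named too, as were the targeted and pathway check genes. So were the 2 protein-coding genes with the largest Pearson's r of log2 CPM (prior count 2) to each member. Host genes of members and other genes singled out were named after their values were seen. The members and lists were chosen with earlier results of these data known. A check gene of the named-gene rule is not reported here. Promoter sequences are from RefSeq (GRCh38.p14).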

Additional observations from a re-analysis of the deposited data

Results flagged for a closer look

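The test of the difference between the TGFβ responses of MII- and MI-spheres called 5 members. The log2 fold-change in MII-spheres exceeded that in MI-spheres by 4.6 (4.598) for MMP1, 5.10 for MMP10, 0.59 for MMP13 and 0.34 (0.335) for MMP14. For TIMP1 it was smaller in MII-spheres, with a difference of -0.36.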

How the results depend on the processing

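Of 44 tested values of members, 33 kept their direction and their side of the threshold in every alternative that tested them. Of the 565 alternative values with a test, 547 did. With at least 10 counts in every library, members called went from 8 to 5 between unstimulated MII- and MI-spheres, from 5 to 3 for the difference of TGFβ responses and from 1 to 0 in SLUG KO, because MMP1, MMP9 or MMP10, low in 1 group, were then not tested. In stimulated MII-spheres that filter left MMP1 and MMP10 untested as well. Over the omission of each library, the members called in SLUG KO ranged from 1 to 3. With flow cell as a term, or on 1 flow cell alone, siSMAD2/3/4 called 1 member in place of 2. Directions turned for log2 fold-changes that were not called. With at least 10 counts in every library, MMP10 in stimulated MI-spheres was -0.009 and TIMP3 in stimulated MII-spheres -0.013. Over the omission of each library, MMP10 there ranged from -0.061 (without MI TGFβ replicate 3) to 0.101, TIMP3 from -0.041 (without MII Ctrl replicate 1) to 0.087, the MMP9 difference of responses from -4.541 to 1.608 (without MII Ctrl replicate 2), and MMP14 in SLUG KO from -0.346 to 0.169 (without WT replicate 2). MMP1 in MI-spheres was called lower without MI Ctrl replicate 2 (-0.503, adjusted p = 0.042, edgeR). The cause was not tested.

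Replicate numbers did not pair the libraries (correlations of same-numbered deviations from -0.123 to 0.032), and the fit with a replicate block changed no call of a member. In SLUG KO the genes called over the whole table were 581, against 1213 with DESeq2, 973 without a low-count filter, 260 with at least 10 counts and 255 with the replicate block, and from 133 to 5592 over the omission of each library. On flow cell HLNGWDSX7 alone siSMAD2/3/4 called 3927 genes against 6365. The median of all genes moved by over 0.1 on the log2 scale only where low genes entered, to -0.246 without a filter and -0.237 with DESeq2 in stimulated MII-spheres, to -0.176 and -0.159 for the difference of responses, and to -0.174 and -0.201 in SLUG KO. Without TMM, 64 of 80 mean levels stayed within 1 SD, and 47 group means were at or above 1 CPM with TMM.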
